A study of Mus musculus with 22 samples.

Results

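Monocyte genes are 10 genes that mark monocytes, the circulating phagocytes made in bone marrow: Ly6c2, Ccr2, Cx3cr1, F13a1, Vcan, Cd14, Fn1, Chst1, Ctss and Lyz2. They were taken by gene name from tables of 47069 genes, and each of the 10 names matched 1 row that passed the filter on low counts. The members were chosen with earlier results of these data known. The tables hold mRNA sequencing of whole bone marrow in 22 libraries. LSK cells, the marrow fraction rich in blood stem and progenitor cells, came from Cas9 knock-in mice and received guide RNAs (sgRNAs) that direct Cas9 to cut a gene. Between 10000 and 40000 of them were transplanted into C57Bl/6J mice irradiated with 7 Gy. The groups were sgEzh2 + sgRunx1 (4 libraries), sgBcor + sgRunx1 (3), sgRunx1 + sgLuc (3), sgBcor + sgLuc (3), sgEzh2 + sgLuc (3) and sgLuc alone (6), where sgLuc targets luciferase, a gene that mice lack. Marrow was taken when leukaemia showed or at 6 months, but the labels do not say which of these applied to a given mouse, nor the age of the mice. Whole marrow can also hold cells of the irradiated host. The labels do not say that each library is a separate mouse, so p-values measure only the spread between these samples, which may be technical.

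Mouse monocytes arise from marrow progenitors and fall into 2 main subsets. Ly6C-high, or classical, monocytes carry Ly6C and the chemokine receptor CCR2, leave the marrow along CCL2 and enter inflamed tissue, while Ly6C-low, or patrolling, monocytes carry much CX3CR1, need the nuclear receptor NR4A1 and crawl along vessel walls. Of the targeted genes, Runx1 encodes a DNA-binding factor of blood formation, Ezh2 the methyltransferase of Polycomb repressive complex 2, and Bcor a subunit of a variant Polycomb repressive complex 1. Each is mutated in human myeloid leukaemia.

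Library totals ran between 30023722 and 57175449 counted reads, so even the lowest member, Chst1, had reads in every library. Levels are given as TMM-scaled CPM, the share of a library's counted reads after edgeR's correction for composition (CPM below). Of the targeted genes, Ezh2 averaged 55.0 ± 14.9 CPM in sgEzh2 + sgRunx1 libraries and 62.6 ± 6.97 CPM in sgEzh2 + sgLuc libraries, against 99.8 ± 8.19 CPM in sgLuc libraries. Runx1 averaged between 114 and 118 CPM in the groups with its guide, against 94.2 ± 5.14 CPM in sgLuc libraries. Bcor averaged 146 ± 47.8 CPM in sgBcor + sgLuc and 100 ± 51.6 CPM in sgBcor + sgRunx1 libraries, against 60.1 ± 5.85 CPM in sgLuc libraries. Neither gene was lower with its guide, so mRNA levels do not check those labels. Bcor was also at 155 CPM in sgEzh2 + sgLuc replicate 3, where its fellow libraries had 64.6 and 65.0 CPM. The Y-linked gene Ddx3y had 39.8 to 70.2 CPM in the 6 sgLuc libraries and 0 reads in the 16 others, so guides and Y-linked reads cannot be told apart in any comparison with sgLuc. One library stood apart: sgEzh2 + sgLuc replicate 3 had 63.2 CPM of the neutrophil gene S100a8 and 484 CPM of the T cell gene Cd3d, where its fellow libraries had 18700 and 22807 CPM of S100a8 and 15.2 and 16.1 CPM of Cd3d. It goes against a label of whole marrow, which is rich in neutrophils, and it was the lowest of the 22 libraries for 6 of the 10 monocyte genes. Results are given with it and, where a call changes, without it.

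Differences below come from 1 edgeR quasi-likelihood model of 17659 genes over the 22 libraries, with log2 fold changes, their approximate SE and the false discovery rate (FDR, Benjamini-Hochberg over these genes), called under 0.05. Tested for any difference among the 6 groups, 4 of the 10 monocyte genes were called, Chst1, Cd14, Cx3cr1 and Vcan. That is near the share of the genes tested that were called, 30.6%. Without sgEzh2 + sgLuc replicate 3, 8 of the 10 were called, against 38% of the genes tested, and Ctss (FDR = 0.0814) and Lyz2 (FDR = 0.341) were the exceptions. In whole marrow, fewer monocytes and less RNA per monocyte cannot be told apart. Where groups are said below not to overlap, that is common with so few libraries. Against sgLuc, 16% of the genes tested did not overlap in sgEzh2 + sgRunx1, 19.6% in sgBcor + sgRunx1 and 21.2% in sgRunx1 + sgLuc. In sgBcor + sgLuc 14.6% did not, and in sgEzh2 + sgLuc 12.4%.

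**Figure D1:**
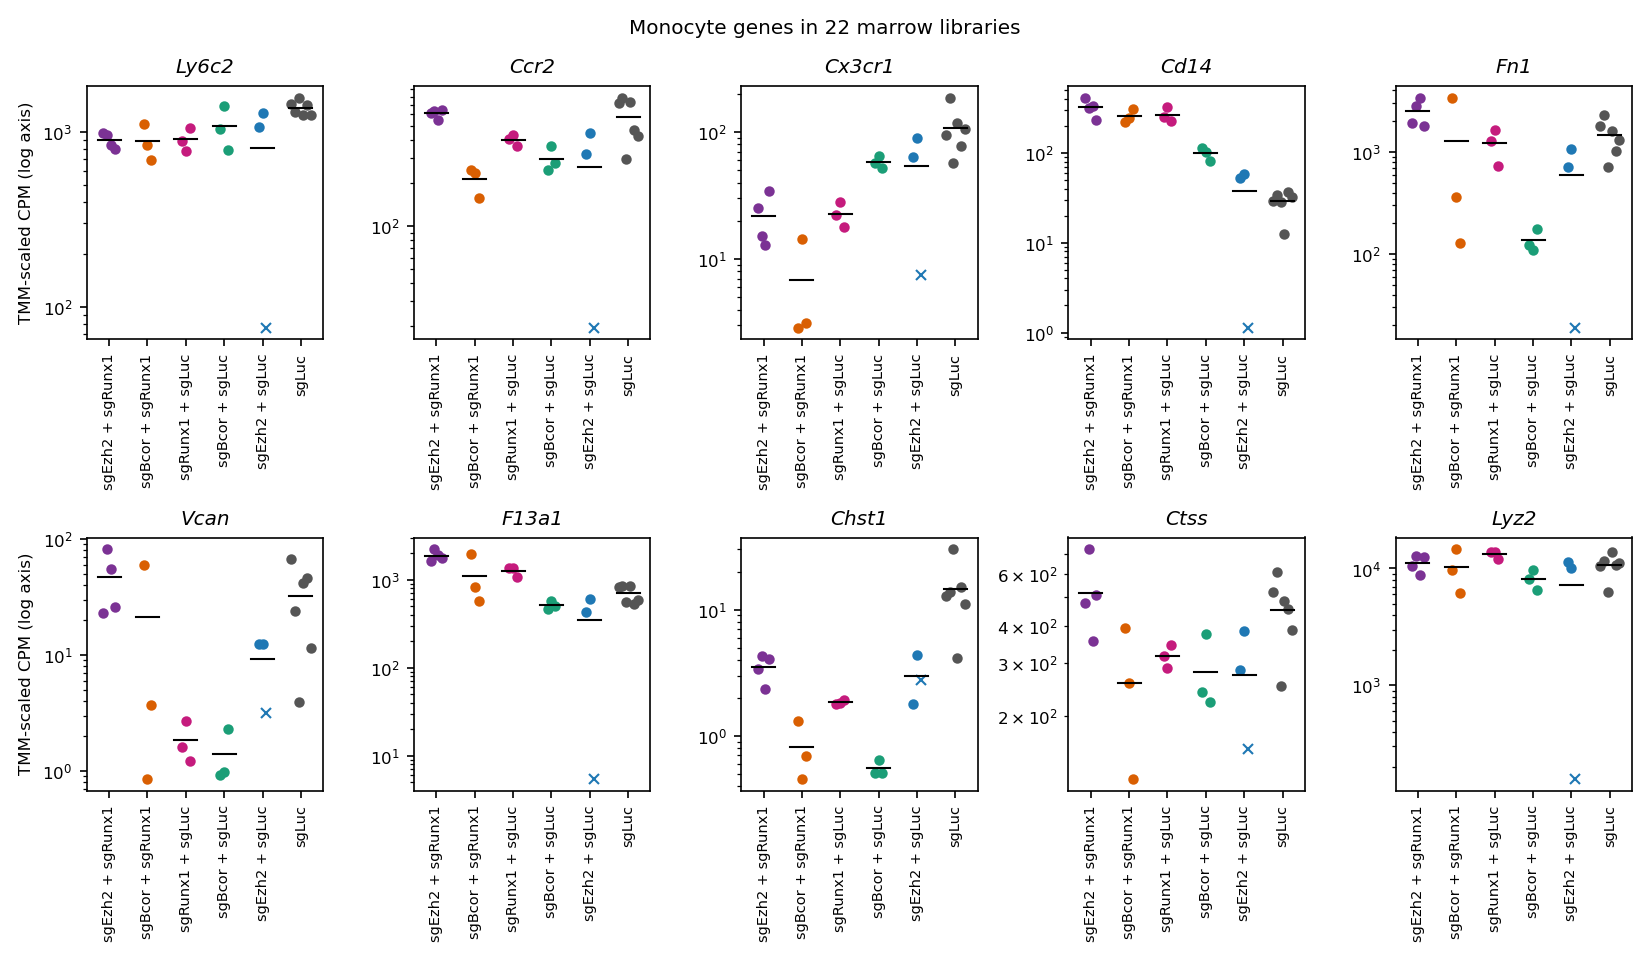
TMM-scaled CPM (log axis, a scale of its own in each panel) of the 10 monocyte genes in the 22 libraries, by guide group, with the line at the group mean and the cross at sgEzh2 + sgLuc replicate 3. Cd14 lies between 219 and 414 CPM in the 10 libraries with the Runx1 guide and between 12.6 and 37.0 CPM in sgLuc libraries, and Chst1 is lower in each edited group's mean than in that of sgLuc.

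Promoter windows of 250 bases before the start site, from RefSeq on GRCm38.p6, were found for 8 of the 10 members, in 10 windows. 5 are printed, for their bearing on the Runx1 guide and on the called genes: Cx3cr1, Ly6c2 and Lyz2 hold the RUNX letters TGTGGT or their reverse complement ACCACA, and Chst1 and Vcan are called genes without them. The 3 motifs searched on both strands were those RUNX letters, the PU.1 letters GAGGAAGT and the C/EBP letters TTGCNNAA. Capitals mark the matches, and the windows are shown 5′ to 3′ along the gene's strand.
Cx3cr1: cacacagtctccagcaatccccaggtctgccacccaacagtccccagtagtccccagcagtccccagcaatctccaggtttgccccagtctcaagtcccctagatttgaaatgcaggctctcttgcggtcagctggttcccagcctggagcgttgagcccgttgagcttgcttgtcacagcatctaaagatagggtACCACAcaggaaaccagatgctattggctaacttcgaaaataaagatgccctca
Ly6c2: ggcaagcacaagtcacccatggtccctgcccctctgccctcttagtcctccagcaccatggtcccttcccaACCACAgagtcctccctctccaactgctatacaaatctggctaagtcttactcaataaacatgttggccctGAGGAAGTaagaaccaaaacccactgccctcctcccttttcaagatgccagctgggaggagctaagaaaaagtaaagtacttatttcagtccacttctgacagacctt
Lyz2: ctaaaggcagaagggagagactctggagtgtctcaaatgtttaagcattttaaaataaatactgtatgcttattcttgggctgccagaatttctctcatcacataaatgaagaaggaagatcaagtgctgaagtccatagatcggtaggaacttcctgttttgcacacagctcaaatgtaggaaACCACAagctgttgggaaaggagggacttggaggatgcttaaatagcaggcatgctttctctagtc
Chst1: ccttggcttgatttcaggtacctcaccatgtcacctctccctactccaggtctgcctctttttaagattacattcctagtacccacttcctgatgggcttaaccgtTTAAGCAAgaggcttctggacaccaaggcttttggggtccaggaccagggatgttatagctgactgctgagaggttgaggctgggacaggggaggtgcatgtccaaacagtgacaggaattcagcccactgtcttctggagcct
Vcan: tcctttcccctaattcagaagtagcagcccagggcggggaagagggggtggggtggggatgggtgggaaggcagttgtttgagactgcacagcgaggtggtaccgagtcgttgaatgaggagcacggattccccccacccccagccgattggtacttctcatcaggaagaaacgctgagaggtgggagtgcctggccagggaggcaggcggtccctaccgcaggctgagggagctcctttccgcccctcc

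The Cx3cr1 window is chr9:120068297-120068546 on the minus strand and holds ACCACA at 54 to 49 bases before the start. That of Ly6c2, at chr15:75111972-75112221 on the minus strand, holds ACCACA and a PU.1 match, and that of Lyz2, at chr10:117282273-117282522 on the minus strand, holds ACCACA. The Chst1 window, chr2:92600867-92601116 on the plus strand, holds a C/EBP match in the form TTAAGCAA, and the Vcan window, chr13:89742513-89742762 on the minus strand, holds none of the 3. The RUNX letters occur in 14% of 32851 mouse windows of this length, the PU.1 letters in 2.44% and the C/EBP letters in 9.56%. Of the members with RUNX letters in the window, Cx3cr1 was called in all 3 groups with the Runx1 guide against sgLuc, and Ly6c2 and Lyz2 in none of them, in the model of 22 libraries; a match is a description of the sequence only. The windows of Ccr2, F13a1 and Ctss hold none of the 3 motifs. On GRCm38 with GENCODE M21, all of these are protein-coding genes: Chst1 spans chr2:92599707-92615250, Cx3cr1 chr9:119901616-120069879, Ccr2 chr9:124101950-124113557 and Lyz2 chr10:117277331-117282321. F13a1 spans chr13:36867178-37050244, Vcan chr13:89655312-89742509, Ly6c2 chr15:75108158-75111970, Fn1 chr1:71585520-71653200 and Ctss chr3:95526786-95556403. The deposited tables were made on the older build mm9, so these positions serve for orientation only.

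Cd14, the co-receptor that hands lipopolysaccharide to the TLR4 complex, was the 1 member called higher in any group against sgLuc in the model of 22 libraries. It had 414, 320, 335 and 230 CPM in sgEzh2 + sgRunx1 libraries, 219, 246 and 308 CPM in sgBcor + sgRunx1 libraries, and 254, 323 and 224 CPM in sgRunx1 + sgLuc libraries. It had 113, 102 and 80.8 CPM in sgBcor + sgLuc libraries and 52.6, 58.9 and 1.13 CPM in sgEzh2 + sgLuc libraries. In the 6 sgLuc libraries it ranged between 12.6 and 37.0 CPM, with a median of 30.8 CPM. The 10 libraries with the Runx1 guide were all above the other 12, the 3 sgBcor + sgLuc libraries came next, and all 3 of these were above every sgLuc library.

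Against sgLuc, Cd14 was higher by 3.49 ± 0.56 on the log2 scale in sgEzh2 + sgRunx1 (FDR = 0.000603), by 3.16 ± 0.58 in sgBcor + sgRunx1 (FDR = 0.00135) and by 3.21 ± 0.58 in sgRunx1 + sgLuc (FDR = 0.00254), or 11.3-fold, 8.94-fold and 9.25-fold. The difference was 1.77 ± 0.57 in sgBcor + sgLuc (FDR = 0.0943), which passed without sgEzh2 + sgLuc replicate 3 (1.77 ± 0.23, FDR = 0.000166). In sgEzh2 + sgLuc it was 0.38 ± 0.59 (FDR = 0.707). Among the doubles and the Runx1 single, neighbouring means (325, 267 and 258 CPM) did not differ beyond their spread, with FDRs of 0.904 and 0.991.

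Cx3cr1, the receptor of fractalkine and the mark of Ly6C-low monocytes, fell in the same 3 groups. It had 25.2, 15.2, 12.9 and 34.5 CPM in sgEzh2 + sgRunx1 libraries, 2.88, 14.3 and 3.11 CPM in sgBcor + sgRunx1 libraries, and 22.2, 28.2 and 17.8 CPM in sgRunx1 + sgLuc libraries. It had 57.1, 65.2 and 52.3 CPM in sgBcor + sgLuc libraries and 64.1, 89.3 and 7.50 CPM in sgEzh2 + sgLuc libraries, and 57.2 to 187 CPM, median 100.5 CPM, in sgLuc libraries. Every library with the Runx1 guide was below every sgLuc library, and 2 of the 3 sgBcor + sgRunx1 libraries were the lowest of all 22. Against sgLuc, the log2 fold change was -2.28 ± 0.57 in sgEzh2 + sgRunx1 (FDR = 0.0148), -3.98 ± 0.72 in sgBcor + sgRunx1 (FDR = 0.00123) and -2.23 ± 0.64 in sgRunx1 + sgLuc (FDR = 0.0377).

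The fall of Cx3cr1 in sgBcor + sgRunx1 held when any 1 library was left out. In sgEzh2 + sgRunx1 it was lost without replicate 2 or replicate 3 of that group (FDR up to 0.0599), and in sgRunx1 + sgLuc without any of 11 libraries (FDR up to 0.154). The differences in sgBcor + sgLuc (-0.88 ± 0.59, FDR = 0.468) and sgEzh2 + sgLuc (-0.996 ± 0.60, FDR = 0.29) did not pass.

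**Figure D2:**
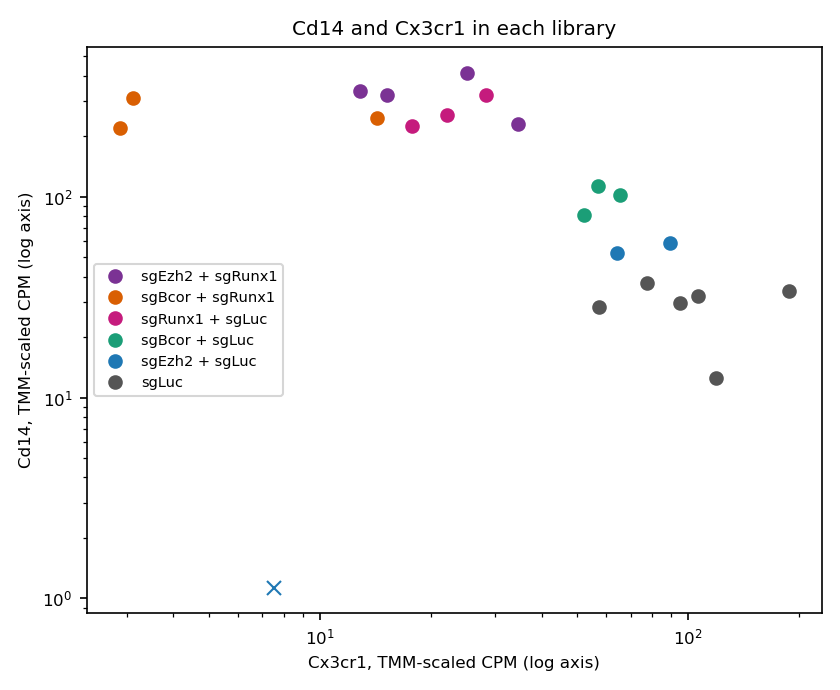
Cd14 against Cx3cr1, both in TMM-scaled CPM on log axes, 1 point per library, coloured by guide group, with a cross at sgEzh2 + sgLuc replicate 3. The 10 libraries with the Runx1 guide lie at 219 CPM of Cd14 or more and at 34.5 CPM of Cx3cr1 or less, and sgLuc libraries at 37.0 CPM of Cd14 or less and 57.2 CPM of Cx3cr1 or more.

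Ccr2, the receptor through which CCL2 draws classical monocytes out of marrow, had its highest mean in sgEzh2 + sgRunx1, with 618, 638, 548 and 644 CPM. It had 247, 235 and 157 CPM in sgBcor + sgRunx1 libraries and 402, 430 and 360 CPM in sgRunx1 + sgLuc libraries. It had 246, 364 and 277 CPM in sgBcor + sgLuc libraries, 318, 443 and 19.6 CPM in sgEzh2 + sgLuc libraries, and 293 to 788 CPM, median 596 CPM, in sgLuc libraries. All sgBcor + sgRunx1 libraries lay below all sgLuc libraries, and no comparison passed. Leaving out sgEzh2 + sgLuc replicate 3, Ccr2 was lower in sgBcor + sgRunx1 than in sgLuc (-1.43 ± 0.26, FDR = 0.000744) and lower in sgBcor + sgLuc than in sgLuc (-0.96 ± 0.25, FDR = 0.0269).

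Ly6c2, which encodes the surface antigen for which the classical subset is named, was called in no comparison over the 22 libraries. It had 995, 967, 848 and 804 CPM in sgEzh2 + sgRunx1 libraries, 1115, 848 and 696 CPM in sgBcor + sgRunx1 libraries and 891, 776 and 1063 CPM in sgRunx1 + sgLuc libraries. It had 1043, 1405 and 788 CPM in sgBcor + sgLuc libraries, 1071, 1287 and 75.8 CPM in sgEzh2 + sgLuc libraries, and 1257 to 1579 CPM, median 1361 CPM, in sgLuc libraries. Its mean was 903 ± 92.3 CPM in sgEzh2 + sgRunx1, 886 ± 212 CPM in sgBcor + sgRunx1 and 910 ± 145 CPM in sgRunx1 + sgLuc, against 1379 ± 130 CPM in sgLuc (SD, n = 4, 3, 3 and 6). All 10 libraries with the Runx1 guide were below all 6 sgLuc libraries, with log2 fold changes of -0.61, -0.64 and -0.60 that did not pass (FDR of 0.415, 0.406 and 0.501). All 3 passed without sgEzh2 + sgLuc replicate 3, at FDRs of 0.00866, 0.0104 and 0.0217. Ly6c1, a neighbour that is identical to Ly6c2 in 97.57% of 822 aligned bases, had at most 6.18 CPM, and reads of these copies may be split between them.

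Vcan and Fn1 make matrix proteins. Vcan encodes versican, a large proteoglycan that classical monocytes make. It had 23.1, 81.9, 55.2 and 26.0 CPM in sgEzh2 + sgRunx1 libraries and 59.8, 0.849 and 3.70 CPM in sgBcor + sgRunx1 libraries. It had 1.61, 2.69 and 1.22 CPM in sgRunx1 + sgLuc libraries, 0.924, 0.978 and 2.28 CPM in sgBcor + sgLuc libraries and 12.4, 12.3 and 3.15 CPM in sgEzh2 + sgLuc libraries. The 6 sgLuc libraries ran between 3.94 and 66.8 CPM, with a median of 32.7 CPM. The sgRunx1 + sgLuc and sgBcor + sgLuc libraries were all below every sgLuc library, and the sgEzh2 + sgRunx1 libraries overlapped the sgLuc range.

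Against sgLuc, Vcan was lower in sgRunx1 + sgLuc by a log2 fold change of -4.13 ± 1.16 (FDR = 0.0337) and in sgBcor + sgLuc by -4.53 ± 1.19 (FDR = 0.044). The first call was lost without sgLuc replicate 1 or 5 or any of the 3 sgRunx1 + sgLuc libraries (FDR up to 0.145), and the second without any of 15 libraries (FDR up to 0.163). The differences from sgLuc were 0.53 ± 0.82 in sgEzh2 + sgRunx1 (FDR = 0.758), -0.59 ± 0.93 in sgBcor + sgRunx1 (FDR = 0.741) and -1.80 ± 1.00 in sgEzh2 + sgLuc (FDR = 0.252).

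Fn1 encodes fibronectin, an adhesive glycoprotein of the matrix. It had 1916, 2850, 3414 and 1797 CPM in sgEzh2 + sgRunx1 libraries, 3384, 365 and 127 CPM in sgBcor + sgRunx1 libraries, and 1289, 1640 and 724 CPM in sgRunx1 + sgLuc libraries. It had 122, 108 and 176 CPM in sgBcor + sgLuc libraries, 713, 1069 and 18.9 CPM in sgEzh2 + sgLuc libraries, and 713 to 2326 CPM, median 1456 CPM, in sgLuc libraries. The 3 sgBcor + sgLuc libraries were below all sgLuc libraries, and sgBcor + sgRunx1 replicate 1 was high in both Fn1 and Vcan while replicates 2 and 3 of its group were not. The log2 fold change of sgBcor + sgLuc against sgLuc was -3.43 ± 1.00 (FDR = 0.0681), and it passed without sgEzh2 + sgLuc replicate 3 (FDR = 0.0181).

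F13a1, the catalytic subunit of clotting factor XIII, which cross-links fibrin and fibronectin, had its highest mean in sgEzh2 + sgRunx1, with 1609, 2223, 1902 and 1762 CPM. It had 1936, 813 and 565 CPM in sgBcor + sgRunx1 libraries and 1341, 1364 and 1075 CPM in sgRunx1 + sgLuc libraries. It had 469, 568 and 497 CPM in sgBcor + sgLuc libraries, 434, 596 and 5.41 CPM in sgEzh2 + sgLuc libraries, and 533 to 856 CPM, median 704 CPM, in sgLuc libraries. The sgEzh2 + sgRunx1 and sgRunx1 + sgLuc libraries were all above every sgLuc library, by 1.42 ± 0.61 (FDR = 0.156) and 0.85 ± 0.65 (FDR = 0.495) on the log2 scale. Both passed without sgEzh2 + sgLuc replicate 3, at 1.42 ± 0.24 (FDR = 0.000523) and 0.85 ± 0.26 (FDR = 0.0372).

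Chst1, a Golgi sulfotransferase that adds sulfate to galactose of keratan sulfate chains, was the member called in all 5 comparisons with sgLuc. It had 3.41, 4.28, 2.33 and 4.08 CPM in sgEzh2 + sgRunx1 libraries, 1.31, 0.453 and 0.695 CPM in sgBcor + sgRunx1 libraries, and 1.79, 1.84 and 1.94 CPM in sgRunx1 + sgLuc libraries. It had 0.510, 0.644 and 0.504 CPM in sgBcor + sgLuc libraries, 1.78, 4.38 and 2.77 CPM in sgEzh2 + sgLuc libraries, and 4.12 to 30.3 CPM, median 13.3 CPM, in sgLuc libraries. The groups with the Bcor guide and sgRunx1 + sgLuc were wholly below sgLuc. In each of the 2 groups with the Ezh2 guide, 1 library was above the lowest sgLuc library.

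The log2 fold changes of Chst1 against sgLuc were -2.04 ± 0.42 in sgEzh2 + sgRunx1 (FDR = 0.00345), -4.14 ± 0.54 in sgBcor + sgRunx1 (FDR = 0.000126), -2.97 ± 0.50 in sgRunx1 + sgLuc (FDR = 0.00138), -4.71 ± 0.55 in sgBcor + sgLuc (FDR = 0.000107) and -2.29 ± 0.47 in sgEzh2 + sgLuc (FDR = 0.00775). Leaving out any 1 library kept 4 of these 5 calls, and that in sgEzh2 + sgLuc was lost without its replicate 3 (FDR = 0.0589). The fitted level in sgBcor + sgLuc was 26.2-fold lower than in sgLuc. All 5 comparisons share the 6 sgLuc libraries, which alone hold Y-linked reads.

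Ctss, the lysosomal protease cathepsin S that trims the invariant chain of MHC class II, and Lyz2, lysozyme M, which cuts bacterial walls, were called in no comparison. Ctss had 479, 726, 357 and 509 CPM in sgEzh2 + sgRunx1 libraries, 395, 257 and 122 CPM in sgBcor + sgRunx1 libraries and 318, 290.1 and 347 CPM in sgRunx1 + sgLuc libraries. It had 241, 377 and 223 CPM in sgBcor + sgLuc libraries, 284, 385 and 154 CPM in sgEzh2 + sgLuc libraries, and 252 to 609 CPM, median 471 CPM, in sgLuc libraries. Every edited group overlapped sgLuc in Ctss. Lyz2 had 10590, 12783, 8811 and 12521 CPM in sgEzh2 + sgRunx1 libraries, 9733, 14669 and 6194 CPM in sgBcor + sgRunx1 libraries and 13741, 13932 and 12032 CPM in sgRunx1 + sgLuc libraries. It had 8062, 9719 and 6505 CPM in sgBcor + sgLuc libraries, 11353, 10112 and 157 CPM in sgEzh2 + sgLuc libraries, and 6305 to 13966 CPM, median 10923 CPM, in sgLuc libraries. Apart from sgEzh2 + sgLuc replicate 3, no library had under 6194 CPM of Lyz2, and every edited group overlapped sgLuc. Lyz1, whose transcript matches that of Lyz2 in 95.96% of 1262 aligned bases, had at most 28.7 CPM, and reads of these copies may be split between them.

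Counted by group against sgLuc, 3 of the 10 monocyte genes were called in sgEzh2 + sgRunx1 (1 higher, 2 lower), where 10.1% of all genes tested were called (4.03% higher, 6.09% lower). In sgBcor + sgRunx1 3 were called (1 higher, 2 lower), against 14.4% (4.73% higher, 9.69% lower). In sgRunx1 + sgLuc 4 were called (1 higher, 3 lower), against 8.12% (2.76% higher, 5.36% lower). In sgBcor + sgLuc 2 were called, both lower, against 3.16% (1.19% lower), and in sgEzh2 + sgLuc 1, lower, against 8.25% (1.95% lower). The count in sgEzh2 + sgLuc, 1 of 10, is near the share of all genes called in either direction. Because the members were chosen with earlier results of these data known, counts above these shares describe the members and test nothing. The median log2 fold change of the 10 members was 0.15, -0.61, -0.52, -0.78 and -1.01 in these 5 comparisons, beside medians over all genes between -0.04 and 0.06. Without sgEzh2 + sgLuc replicate 3 the counts were 5, 5, 6, 5 and 0, against 17.4%, 22.7%, 14.6%, 8.17% and 1.05% of the genes then tested.

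**Figure D3:**
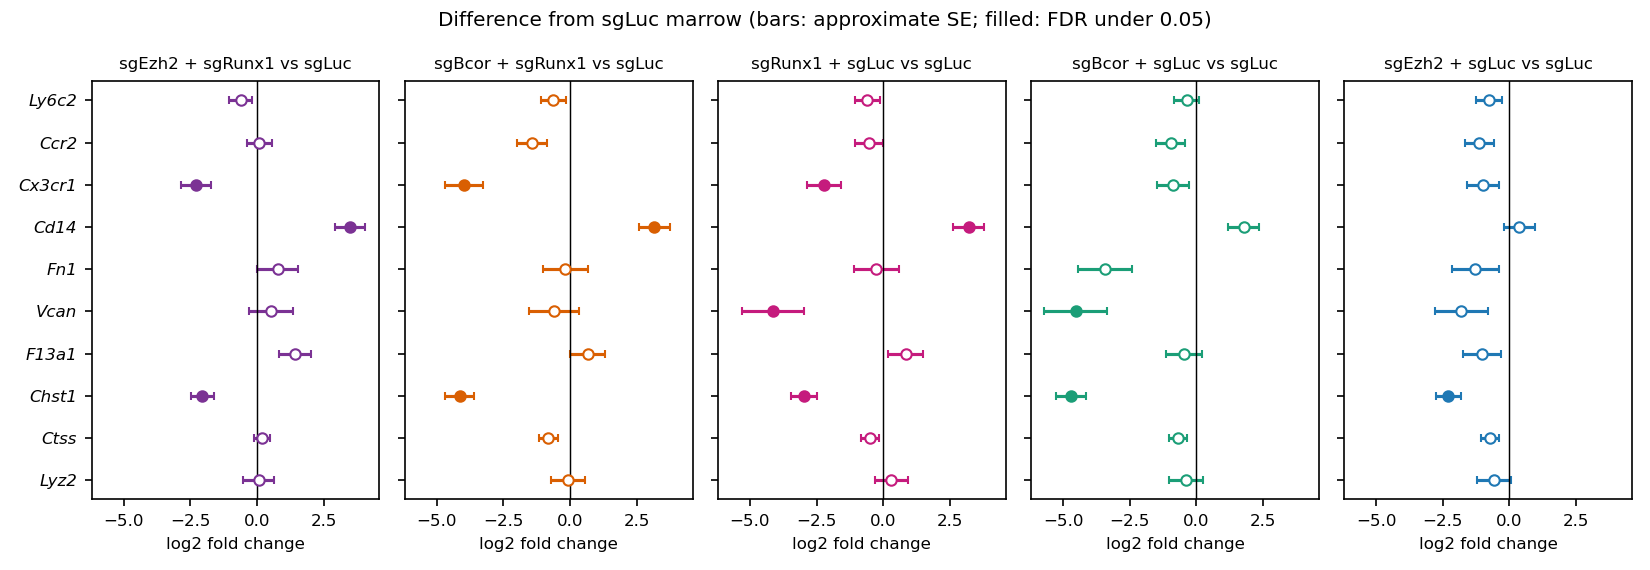
Log2 fold change against sgLuc of the 10 monocyte genes in each of the 5 edited groups, with the approximate SE as bars and filled points at FDR under 0.05. Cd14 lies at 3.16 to 3.49 in the 3 groups with the Runx1 guide, Chst1 is below 0 and filled in all 5 panels, and Vcan is filled in the Runx1 and Bcor singles.

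Per kilobase of gene length (FPKM), Lyz2 ranked first and Ly6c2 next among the members in all 6 groups. In sgEzh2 + sgRunx1 libraries Cd14 ranked sixth of the 10 members at 214 ± 49.9 FPKM and Cx3cr1 ninth at 6.66 ± 3.14 FPKM, whereas in sgLuc libraries Cx3cr1 ranked seventh at 30.8 ± 14.3 FPKM and Cd14 eighth at 18.0 ± 5.32 FPKM. Lyz2 had 9150 ± 1373 FPKM in sgEzh2 + sgRunx1 libraries and 8266 ± 1924 FPKM in sgLuc libraries. The length behind the authors' FPKM of Vcan is 3885 bases, while its longest annotated transcript has 12427, so its level per length depends on the transcript counted.

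The doubles were then set against their singles, which asks what a second guide added. Between sgEzh2 + sgRunx1 and sgRunx1 + sgLuc edgeR called 0 of the 10 members (1 at an unadjusted p under 0.05, and 1 with DESeq2), where it called 0.187% of all genes. The member at the unadjusted threshold was Vcan, with 4.66 ± 1.21 (FDR = 0.109) and no overlap between the groups, as in 23.1% of all genes. Between sgEzh2 + sgRunx1 and sgEzh2 + sgLuc 2 were called, both higher in the double, near the share of 12.6% of all genes. They were Cd14 (3.11 ± 0.72, FDR = 0.00794) and F13a1 (2.44 ± 0.79, FDR = 0.0495). The call of Cd14 held without any 1 library, and without sgEzh2 + sgLuc replicate 3 it was 2.55 ± 0.34 (FDR = 0.000155). That of F13a1 was lost in 19 of the 22 omissions (FDR up to 0.0954), though not without sgEzh2 + sgLuc replicate 3 (1.87 ± 0.36, FDR = 0.00329), where Cx3cr1 was also called, lower in the double (-1.80 ± 0.53, FDR = 0.0438), and 9.36% of all genes were called.

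Between sgBcor + sgRunx1 and sgRunx1 + sgLuc edgeR called 0 of the 10 (3 at an unadjusted p under 0.05, and 1 with DESeq2), against 1.24% of all genes. Between sgBcor + sgRunx1 and sgBcor + sgLuc 3 were called, against 12.2% of all genes. Cx3cr1 was lower in the double (-3.10 ± 0.72, FDR = 0.0102), a call lost without sgBcor + sgRunx1 replicate 3 (FDR = 0.0555). Vcan (3.94 ± 1.21, FDR = 0.0397) and Fn1 (3.25 ± 1.05, FDR = 0.0498) were higher in the double, and both calls rested on sgBcor + sgRunx1 replicate 1: without it the values were 0.68 (FDR = 0.687) and 0.89 (FDR = 0.545). The Vcan call was lost without sgRunx1 + sgLuc replicate 1 or any sgBcor + sgLuc library too, and the Fn1 call in 19 of the 22 omissions. When sgEzh2 + sgLuc replicate 3 was left out, 5 members were called in this comparison, against 21.1% of all genes, with F13a1 (1.11 ± 0.32, FDR = 0.0181) and Cd14 (1.39 ± 0.28, FDR = 0.00243) as the further calls, both higher in the double. Against sgRunx1 + sgLuc the count stayed at 0 for both doubles without that library, where 3.14% (sgEzh2 + sgRunx1) and 5.02% (sgBcor + sgRunx1) of all genes were called.

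Between the doubles, sgEzh2 + sgRunx1 against sgBcor + sgRunx1, 1 member was called, near the share of 7.05% of all genes. Chst1 was higher in sgEzh2 + sgRunx1 by 2.10 ± 0.50 (FDR = 0.0156), with no overlap, as in 21.7% of all genes. The call was lost without sgBcor + sgRunx1 replicate 2 or 3 (FDR up to 0.0824). Without sgEzh2 + sgLuc replicate 3, Ccr2 (1.52 ± 0.27, FDR = 0.00117) and Cx3cr1 (1.70 ± 0.53, FDR = 0.039) were higher in sgEzh2 + sgRunx1 as well, where 15% of all genes were called.

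Between the singles, sgRunx1 + sgLuc against sgEzh2 + sgLuc gave 1 call, Cd14 (2.83 ± 0.73, FDR = 0.0155), near the share of 15.1% of all genes. The call was lost without sgRunx1 + sgLuc replicate 2 (FDR = 0.0507). When sgEzh2 + sgLuc replicate 3 was left out, F13a1 was called too (1.29 ± 0.36, FDR = 0.0319), against 9% of all genes. The comparison of sgBcor + sgLuc with sgEzh2 + sgLuc gave 1 call, Chst1 (-2.42 ± 0.53, FDR = 0.042), against 0.51% of all genes, lost in 14 of the 22 omissions (FDR up to 0.165) and kept without sgEzh2 + sgLuc replicate 3 (FDR = 0.0434), against 0.798% of all genes. In sgRunx1 + sgLuc against sgBcor + sgLuc edgeR called 0 members (2 at an unadjusted p under 0.05, and 2 with DESeq2), against 4.75% of all genes. That comparison gave 4 calls without sgEzh2 + sgLuc replicate 3, all higher in sgRunx1 + sgLuc, against 9.83% of all genes: F13a1 (1.30 ± 0.32), Cd14 (1.44 ± 0.28), Fn1 (3.17 ± 0.84) and Chst1 (1.74 ± 0.53), with FDRs between 0.00336 and 0.0414.

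An interaction term tested whether the effects of 2 guides add up in the double on the log2 scale. Each term also holds sgLuc, which alone has Y-linked reads. A difference between sgLuc and all edited libraries would enter the term and cannot be told apart from non-additivity. For Ezh2 and Runx1 1 member was called, against 0.527% of all genes. Chst1 was 3.21 ± 0.66 above additivity (FDR = 0.0355), with log2 fold changes against sgLuc of -2.04 in the double and of -2.97 and -2.29 in the Runx1 and Ezh2 singles. The call was lost in 12 of the 22 omissions (FDR up to 0.124) and kept without sgEzh2 + sgLuc replicate 3 (FDR = 0.046), against 0.792% of all genes. For Bcor and Runx1 2 were called, against 3.22% of all genes: Chst1 at 3.54 ± 0.71 (FDR = 0.0142) and Vcan at 8.07 ± 1.67 (FDR = 0.0178). Both rest on low levels in the singles. Chst1 averaged 1.85 CPM in sgRunx1 + sgLuc and 0.553 CPM in sgBcor + sgLuc, and Vcan 1.84 and 1.39 CPM.

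The Chst1 term for Bcor and Runx1 was lost without sgRunx1 + sgLuc replicate 1 or 2 (FDR up to 0.0557), and the Vcan term without either of those or without sgBcor + sgLuc replicate 1 (FDR up to 0.0724). Without sgBcor + sgRunx1 replicate 1 the Vcan term was 4.79 (FDR = 0.0408). Cd14 was called too without sgEzh2 + sgLuc replicate 3, at -1.82 ± 0.37 (FDR = 0.00782), against 9.13% of all genes, so that its level in the Bcor and Runx1 double was below additivity.

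**Figure D4:**
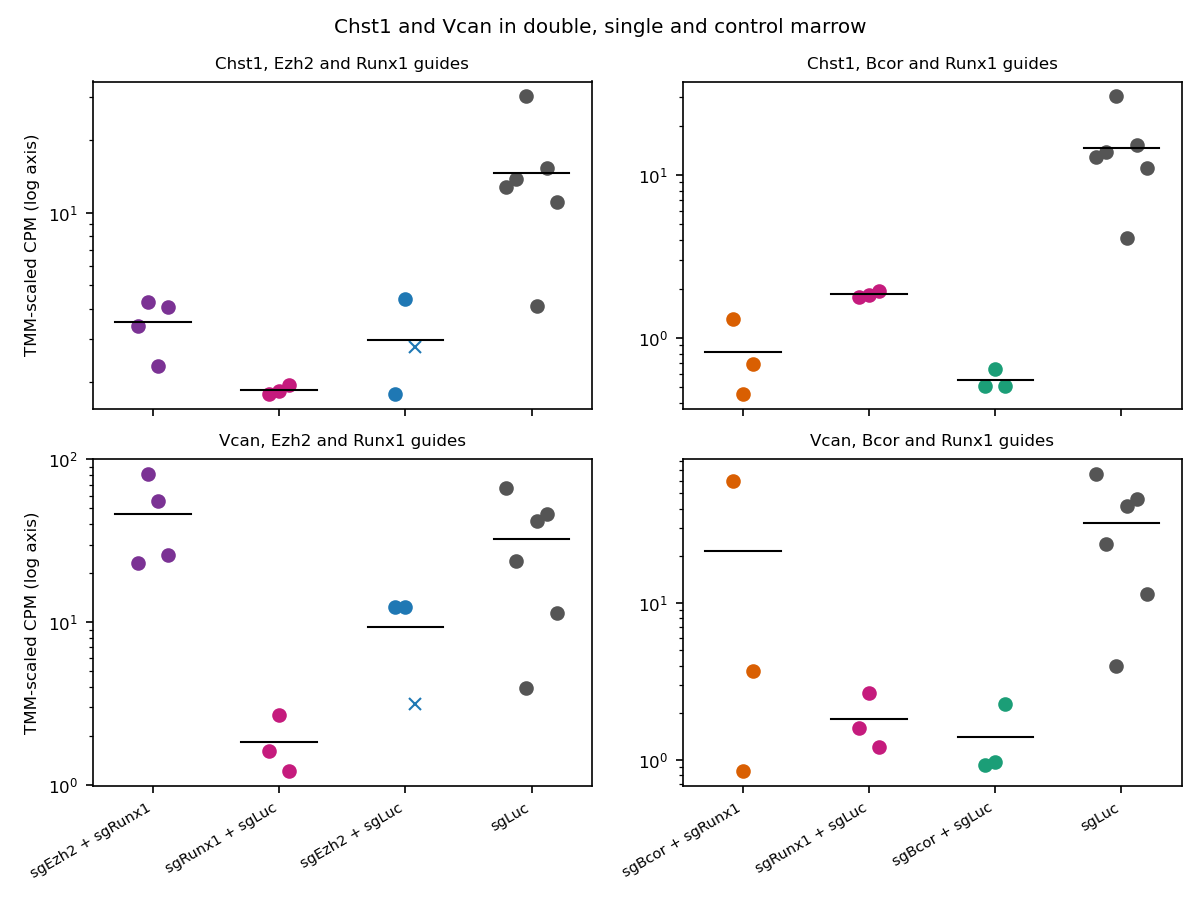
Chst1 (top) and Vcan (bottom) in TMM-scaled CPM on log axes, each panel with its own scale, in a double, its singles and sgLuc, with the line at the group mean and the cross at sgEzh2 + sgLuc replicate 3. Chst1 averages 3.53 CPM in sgEzh2 + sgRunx1 and 0.819 CPM in sgBcor + sgRunx1, against 14.5 CPM in sgLuc, and Vcan in sgBcor + sgRunx1 spans 0.849 to 59.8 CPM.

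The 16 edited libraries all lack Y-linked reads, so a contrast added after the data were seen set the mean of the 3 groups with the Runx1 guide against the mean of the 2 singles with the Bcor or Ezh2 guide. Of the 10 members 4 were called, not far above the share of 25.1% of all genes. Cd14 was higher by 2.21 ± 0.48 (FDR = 0.00222), with 219 to 414 CPM in the 10 libraries with the Runx1 guide and 1.13 to 113 CPM in the 6 others. Between these 2 sets of libraries 4.69% of all genes did not overlap. Cx3cr1 was lower by a log2 fold change of -1.90 ± 0.41 (FDR = 0.00241). Fn1 (2.47 ± 0.68, FDR = 0.0123) and F13a1 (1.71 ± 0.53, FDR = 0.0228) were higher. All 4 calls held without sgEzh2 + sgLuc replicate 3, against 24.1% of all genes, and F13a1 was lost without sgBcor + sgLuc replicate 1 or 3 (FDR up to 0.0556). In the same contrast 4 of the 28 further Ly6C-high genes described next were higher and 1 lower, and 6 of the 17 Ly6C-low genes were lower. Chst1, called in each comparison with sgLuc, was at 0.45 ± 0.33 here (FDR = 0.343).

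Beside the members, 17 further genes of Ly6C-low monocytes and 28 of Ly6C-high monocytes were followed, also chosen with earlier results of these data known. Of the 17, 6 were lower in sgEzh2 + sgRunx1 than in sgLuc, 8 in sgBcor + sgRunx1, 8 in sgRunx1 + sgLuc, 1 in sgBcor + sgLuc and 1 in sgEzh2 + sgLuc, and edgeR called 0 higher in any of the 5 (at an unadjusted p under 0.05, 1 was higher in each group with the Ezh2 guide). Of all genes, 6.09%, 9.69%, 5.36%, 1.19% and 1.95% were called lower in that order. The median log2 fold change of the 17 was -0.93, -1.27, -0.96, -0.65 and -0.50, beside medians near 0 over all genes. Without sgEzh2 + sgLuc replicate 3 the counts were 8, 11, 10, 4 and 0, where 17.4%, 22.7%, 14.6%, 8.17% and 1.05% of all genes were called in either direction.

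Ace, the angiotensin-converting enzyme found on Ly6C-low monocytes, had 3.70 to 13.5 CPM in sgEzh2 + sgRunx1 libraries, 0.195 to 2.72 CPM in sgBcor + sgRunx1 libraries and 1.34 to 3.31 CPM in sgRunx1 + sgLuc libraries, against 15.6 to 77.6 CPM in sgLuc libraries. Its log2 fold changes were -2.56 ± 0.55 (FDR = 0.00533), -4.77 ± 0.71 (FDR = 0.000324) and -4.20 ± 0.69 (FDR = 0.00132). Ear2, a ribonuclease of the eosinophil-associated family, fell by 4.94 on the log2 scale in sgRunx1 + sgLuc (FDR = 0.00115), and Pou2f2, a POU-domain transcription factor, by 0.96 (FDR = 0.00175). Pou2f2 had 56.6 to 84.1 CPM in sgEzh2 + sgRunx1 libraries, against 19.3 to 27.3 CPM in sgBcor + sgRunx1 libraries, a log2 fold change of 1.64 ± 0.18 (FDR = 5.93e-05). Nr4a1 was not called and ranged between 56.0 and 648 CPM within sgBcor + sgRunx1 alone. Summed eosinophil, basophil and mast cell markers lay between 65.1 and 79.1 CPM in sgEzh2 + sgRunx1 and 89.4 and 110 CPM in sgBcor + sgRunx1. They lay between 77.0 and 100 CPM in sgRunx1 + sgLuc, against 390 and 1234 CPM in sgLuc. In sgBcor + sgLuc the range was 121 to 340 CPM and in sgEzh2 + sgLuc 6.69 to 396 CPM. Their part in the result on Ear2 was not tested.

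Of the 28 genes of Ly6C-high monocytes, 1 was called in the 5 comparisons with sgLuc. It was Clec4a1, a C-type lectin, lower in sgBcor + sgRunx1, where 9.69% of all genes were called lower. At an unadjusted p under 0.05, 2 were higher and 2 lower in sgEzh2 + sgRunx1, 0 and 7 in sgBcor + sgRunx1, 1 and 3 in sgRunx1 + sgLuc, 0 and 2 in sgBcor + sgLuc, and 0 and 3 in sgEzh2 + sgLuc. No share of all genes at the unadjusted threshold was computed, here or for the other lists, so such counts are description only. The median log2 fold changes were 0.27, -0.31, -0.13, -0.49 and -0.74. Without sgEzh2 + sgLuc replicate 3, 3 were higher and 2 lower in sgEzh2 + sgRunx1, 3 and 7 in sgBcor + sgRunx1, 2 and 6 in sgRunx1 + sgLuc, 0 and 3 in sgBcor + sgLuc, and 0 and 0 in sgEzh2 + sgLuc. Of all genes, 17.4%, 22.7%, 14.6%, 8.17% and 1.05% were then called in either direction, in that order.

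**Figure D5:**
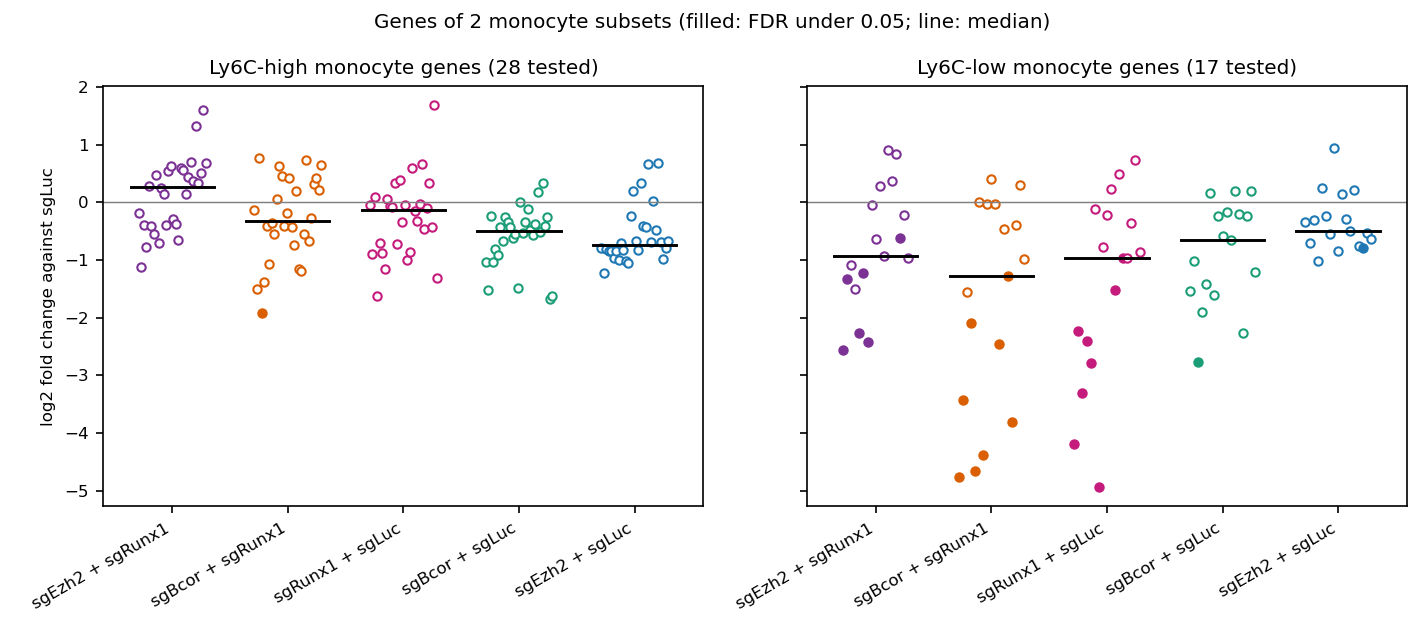
Log2 fold change against sgLuc of 28 further genes of Ly6C-high monocytes (left) and 17 of Ly6C-low monocytes (right) in the 5 edited groups, 1 point per gene, filled at FDR under 0.05, with the line at the median. In the groups with the Runx1 guide 6 to 8 of the 17 Ly6C-low genes are filled and lower, and of the Ly6C-high genes 1 is filled.

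The ligands of these receptors were measured in the same libraries. Ccl2, the main CCR2 ligand, had 79.6 to 121 CPM in sgEzh2 + sgRunx1 libraries, against 1.30 to 24.5 CPM in sgLuc libraries, and was higher by 2.58 ± 0.69 (FDR = 0.0218). In sgRunx1 + sgLuc it had 66.5 to 72.5 CPM, also above all sgLuc libraries, and was not called, though it was called higher when sgEzh2 + sgLuc replicate 3 was left out. Cx3cl1, the gene of fractalkine, had at most 0.754 CPM in any library, and from these levels was called lower in sgBcor + sgRunx1 (FDR = 0.0411) and sgRunx1 + sgLuc (FDR = 0.0352).

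Of the 9 genes of the lipopolysaccharide receptor and its signalling, 1 was called lower in sgBcor + sgRunx1 (Cd180, a TLR4-like receptor) and 1 lower in sgEzh2 + sgLuc (Irak4, a kinase below the receptor) against sgLuc. Of all genes, 9.69% were called lower in the first of these comparisons and 1.95% in the second. The Irak4 call was lost without sgEzh2 + sgLuc replicate 3, as was every call in that comparison on the lists beside the members, where 1.05% of all genes were then called. Tlr4, which signals with CD14, was higher in sgEzh2 + sgRunx1 than in sgEzh2 + sgLuc (1.31 ± 0.37, FDR = 0.0263) and in sgBcor + sgRunx1 than in sgBcor + sgLuc (1.24 ± 0.39, FDR = 0.0434). It had 24.5 to 40.7 CPM in sgEzh2 + sgRunx1 libraries and 22.3 to 48.3 CPM in sgBcor + sgRunx1 libraries, against 15.9 to 27.8 CPM in sgLuc libraries.

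Among 8 receptors of fibronectin and versican, Itga4, the alpha4 integrin, was higher in sgEzh2 + sgRunx1 and Itgb3, the beta3 integrin, in sgRunx1 + sgLuc, and Itgb1, the beta1 integrin, was lower in sgBcor + sgRunx1. Of the 9 cathepsins, their inhibitors and the invariant chain, Cd74, the invariant chain that Ctss cleaves, was lower in both doubles, while Ctsc, the cathepsin that activates granule proteases, was higher in sgEzh2 + sgRunx1 and lower in sgBcor + sgRunx1. Ctsz, cathepsin Z, was called lower in sgEzh2 + sgLuc with replicate 3 of that group and not without it. Of 16 monocyte transcription factors, Id2 was lower in sgEzh2 + sgRunx1 and sgRunx1 + sgLuc, Gfi1 higher in sgBcor + sgRunx1, and Bhlhe40 higher in sgBcor + sgLuc. Among all genes, 4.03% were called higher and 6.09% lower in sgEzh2 + sgRunx1, and 4.73% and 9.69% in sgBcor + sgRunx1. Shares were 2.76% and 5.36% in sgRunx1 + sgLuc. In either direction, they were 3.16% in sgBcor + sgLuc and 8.25% in sgEzh2 + sgLuc. With lists this short, 1 call is not read as a result on the list. Cebpb was called lower in sgEzh2 + sgLuc, and of 10 genes of monocyte and dendritic cell progenitors Cd27, higher in sgEzh2 + sgLuc, was the 1 call. Both were lost without replicate 3 of that group, when 4 progenitor genes were called higher in sgBcor + sgRunx1, 1 higher and 1 lower in sgEzh2 + sgRunx1, and 1 higher in sgRunx1 + sgLuc. Of all genes, 22.7%, 17.4% and 14.6% were then called in these 3 groups in either direction.

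Of 7 tested relatives of Chst1, Lyz2 and F13a1, the sulfotransferase gene Chst3 was lower in all 3 groups with the Runx1 guide and Chst7 in sgBcor + sgRunx1. Among all genes, 6.09% were called lower in sgEzh2 + sgRunx1, 9.69% in sgBcor + sgRunx1 and 5.36% in sgRunx1 + sgLuc. Chst3 had 0 to 2.37 CPM in sgEzh2 + sgRunx1 libraries, 0.306 to 0.481 CPM in sgBcor + sgRunx1 libraries and 0.414 to 1.53 CPM in sgRunx1 + sgLuc libraries, against 16.1 to 57.9 CPM in sgLuc libraries. In sgBcor + sgLuc it had 3.69 to 119 CPM and in sgEzh2 + sgLuc 56.1 to 74.3 CPM, and in these 2 groups it was not called. The summed B cell markers moved with it: 28.9 to 61.8 CPM in sgEzh2 + sgRunx1, 23.2 to 56.6 CPM in sgBcor + sgRunx1 and 28.9 to 60.4 CPM in sgRunx1 + sgLuc, against 281 to 804 CPM in sgLuc. Their part in the result was not tested.

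Across the 22 libraries, members were set in order by rank (Spearman), as a description over libraries that share groups and depth. Ccr2 and Ctss ranked most alike (rho = 0.88), followed by F13a1 and Fn1 (rho = 0.85), and Cx3cr1 and Cd14 least alike (rho = -0.61). Among other genes with a mean of 4 CPM or more, the 3 most like Cd14 were Nfil3 (0.91), Pcp4l1 (0.90) and Ldhb (0.88), and those most like Cx3cr1 were L1cam (0.94), Adgre4 (0.94) and Lat2 (0.94). For Chst1 they were Oaf (0.85), Dock6 (0.83) and Nr2f6 (0.81), and for Vcan Ms4a4a (0.92), Adam9 (0.87) and Ms4a6d (0.84). The nearest gene to Ccr2 was Clec4a3 (0.94), to F13a1 Sh3tc1 (0.94), to Fn1 Abca6 (0.94), to Ctss Tmem106a (0.92), to Lyz2 Clec7a (0.86) and to Ly6c2 C1qb (0.84).

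Markers of other cells that share these genes were read beside them. Neutrophils also carry Lyz2 and Cd14, and of 12 neutrophil markers edgeR called 0 in any of the 5 comparisons with sgLuc (at an unadjusted p under 0.05, 1 was lower in sgEzh2 + sgRunx1 and 0 passed in the others). When sgEzh2 + sgLuc replicate 3 was left out, 6 were lower in sgEzh2 + sgRunx1 and 2 higher in sgBcor + sgRunx1. Of all genes, 17.4% and 22.7% were then called in these 2 groups in either direction. The sum of the 12 neutrophil markers lay between 38913 and 50582 CPM in sgEzh2 + sgRunx1 and 70372 and 118760 CPM in sgBcor + sgRunx1. It lay between 72639 and 80008 CPM in sgRunx1 + sgLuc, against 44425 and 94935 CPM in sgLuc. No neutrophil marker was at 0 reads in any library. Of 11 tissue macrophage markers tested, 3 were lower in sgEzh2 + sgRunx1, 5 in sgBcor + sgRunx1, 1 in sgBcor + sgLuc and 3 in sgEzh2 + sgLuc (0 of these 3 without its replicate 3), and their sum lay between 263 and 507 CPM in the groups with the Runx1 guide, against 298 and 591 CPM in sgLuc. Of 11 dendritic cell markers, 1 was lower in sgEzh2 + sgRunx1, 4 in sgBcor + sgRunx1 and 1 in sgRunx1 + sgLuc. Of 9 B cell markers, 8, 7 and 7 were lower in those groups, and of 6 NK cell markers 2, 2 and 3. Of all genes, 6.09%, 9.69% and 5.36% were called lower in those 3 groups, 1.19% in sgBcor + sgLuc and 1.95% in sgEzh2 + sgLuc. The 1 of 11 dendritic cell markers lower in sgEzh2 + sgRunx1 and in sgRunx1 + sgLuc is near these shares. The summed T cell markers lay between 3.41 and 23.5 CPM in the groups with the Runx1 guide, against 44.5 and 119 CPM in sgLuc. In sgEzh2 + sgLuc the sum was 133, 153 and, in the library that stood apart, 3050 CPM. Of the 10 T cell markers 8 were called higher in sgEzh2 + sgLuc than in sgLuc, and 0 without that library. Of all genes, 8.25% were called there in either direction with that library and 1.05% without it. In the contrast within edited libraries all 10 T cell markers were lower in the groups with the Runx1 guide, where 25.1% of all genes were called in either direction. The part of these cells in the results on Cd14 and Cx3cr1 was not tested.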

How the data were processed

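Whole marrow was measured by bulk mRNA sequencing (poly-A selection, per the labels' protocols) in 22 libraries of 6 groups. Tools that the submitters' processing notes name are HTSeq, HISAT2 and fastp, with build mm9 and without versions. The strand setting of the counting is not stated there. The authors deposited raw read counts per gene and FPKM. In 14383 of 14383 genes with a read in every library, the deposited FPKM equals count over gene length and library total (tolerance 1e-06).

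Counts of 47069 genes were filtered with filterByExpr (minimum count 10), which left 17659, scaled by TMM and fitted with edgeR 4.0.16 (quasi-likelihood, robust) in R 4.3.3, with 1 mean per group over 22 libraries and 16 residual degrees of freedom. The 13 pairs of groups and 2 interactions were tested, with Benjamini-Hochberg FDR under 0.05 over all genes. SEs are approximate, the log2 fold change over the square root of F. The script was tested on simulated data. Alternatives were DESeq2 1.42.0, other scalings, no filter, a replicate block and leaving out each library; the contrast within edited libraries was added after the data were seen. The 10 members are named in every library, up to 4 called genes per related list by p, and the 3 genes most like each member. Members and lists were chosen with earlier results of these data known. Replicate numbers come from the sample titles, which for 4 libraries differ from the descriptions.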

Additional observations from a re-analysis of the deposited data

Results flagged for a closer look

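Cd14 in sgLuc replicate 4 was 12.6 CPM, far from the other 5 sgLuc libraries, which lay between 28.1 and 37.0 CPM. Its gap to the nearest of them was 0.637 of the group's range, above Dixon's critical value for 6 samples. Of 20 such checks on the members, chance alone flags about 1 in 20.

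The difference between the effect of the Runx1 guide with and without a second guide passed the test of the difference itself for 3 results. All of these terms hold sgLuc, so a difference between sgLuc and all edited libraries, as in Y-linked reads, cannot be told apart from non-additivity. For Ezh2 and Runx1, Chst1 was 3.21 above additivity (log2). For Bcor and Runx1, Chst1 was 3.54 and Vcan 8.07 above it. In the Vcan result, sgBcor + sgRunx1 replicate 1 had 59.8 CPM and its fellow libraries 0.849 and 3.70 CPM.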

How the results depend on the processing

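No called monocyte gene changed sign under any alternative. Of 28 called results on single members, 120 of 140 recomputations under other settings and 502 of 616 under the omission of 1 library kept the call. Cd14 in the 3 groups with the Runx1 guide against sgLuc and in sgEzh2 + sgRunx1 against sgEzh2 + sgLuc, Chst1 in the 4 groups other than sgEzh2 + sgLuc against sgLuc, and Cx3cr1 in sgBcor + sgRunx1 against sgLuc kept it in all of them.

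With DESeq2 the members called were 4 in sgBcor + sgLuc against sgLuc (main 2), 1 in sgEzh2 + sgRunx1 and 1 in sgBcor + sgRunx1 against sgRunx1 + sgLuc (main 0), 2 between the doubles (main 1), 2 in sgRunx1 + sgLuc against sgBcor + sgLuc (main 0), 2 for the Ezh2 and Runx1 interaction (main 1) and 8 among the 6 groups (main 4). With no filter on low counts they were 2 in sgRunx1 + sgLuc and 1 in sgBcor + sgLuc against sgLuc, 1 in sgEzh2 + sgRunx1 against sgEzh2 + sgLuc and 1 in sgBcor + sgRunx1 against sgBcor + sgLuc. With RLE size factors 1 was called in sgEzh2 + sgRunx1 against sgEzh2 + sgLuc (main 2). Scaling by library totals alone kept every count within 1.5 times but put the median of all genes at 0.20 between the doubles (main 0.02) and at -0.21 in sgBcor + sgRunx1 against sgBcor + sgLuc (main -0.04). The cause of these changes was not tested.

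Same-numbered replicates, each taken relative to its group mean, correlated between -0.207 and 0.154, and no comparison had every pair over 0.1. With so few libraries per group this cannot exclude a batch shared by replicate number, so a replicate block was also fitted. With the replicate block the members called were against sgLuc 2 in sgRunx1 + sgLuc, 1 in sgBcor + sgLuc and 0 in sgEzh2 + sgLuc, 1 in each double against its Ezh2 or Bcor single, 0 in sgBcor + sgLuc against sgEzh2 + sgLuc and 0 for both interactions. Under the block 4, 8 and 5 Ly6C-low genes were lower in sgEzh2 + sgRunx1, sgBcor + sgRunx1 and sgRunx1 + sgLuc.

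Leaving out 1 library at a time, the members called against sgLuc ranged over 2 to 5 in sgEzh2 + sgRunx1, 3 to 5 in sgBcor + sgRunx1, 2 to 6 in sgRunx1 + sgLuc, 1 to 5 in sgBcor + sgLuc and 0 to 1 in sgEzh2 + sgLuc. They ranged over 0 to 1 and 1 to 3 for sgEzh2 + sgRunx1 against its Runx1 and Ezh2 singles, 0 to 0 and 1 to 5 for sgBcor + sgRunx1 against its Runx1 and Bcor singles, and 0 to 3 between the doubles. Between singles they ranged over 0 to 4 for Runx1 against Bcor, 0 to 2 for Runx1 against Ezh2 and 0 to 1 for Bcor against Ezh2. The ranges were 0 to 2 and 0 to 3 for the Ezh2 and Bcor interactions, 3 to 5 for the contrast within edited libraries and 4 to 8 among the 6 groups.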
